A study of Mus musculus with 2 samples.

Results

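The collagen genes of the newborn mouse heart were the 44 genes, of 27999 features in the count tables, whose symbol has the form Col, a number, the letter a and a number. Membership was set by name alone, although collagen genes were chosen as the subject with earlier results of these data known. Cells of whole hearts taken on the day of birth (P0) were dissociated with trypsin and passed through droplet 3' single-cell RNA sequencing, which tags the end of each polyadenylated transcript with a cell barcode. The 2 libraries are technical replicates of 1 biological sample, the strain background is labelled C57BL6+ICR, and no treatment, sort, genotype or number of hearts is given. The series describes the data as a reference map from which transcription factors for direct lineage conversion were picked.

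A collagen is a trimer of alpha chains wound into a triple helix, and each chain has a gene of its own. Fibrillar collagens build the tensile fibrils of stroma, vessel walls and valves. Network collagens form beaded filaments and hexagonal lattices, and FACIT collagens (fibril-associated collagens with interrupted triple helices) sit on the surface of fibrils. Type IV collagen is the sheet of every basement membrane, where types XV and XVIII are also found, and transmembrane collagens are held in the cell membrane. The 44 genes were 11 fibrillar, 9 network, 9 FACIT, 9 basement membrane and 4 transmembrane genes, and 2 of other kinds.

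Replicate 1 held 5888 barcodes with 34668956 counts and replicate 2 held 6047 with 33871582, and the median barcode had 4831 and 4521 counts. Barcodes with at least 500 genes and under 0.5% haemoglobin counts were kept, 4596 and 4005 of them, and 31 of the kept barcodes occurred in both libraries. Each kept barcode was placed in a class by how many genes of a fixed marker list it held. The 8 classes with at least 50 barcodes were cardiomyocyte-like (5412), fibroblast-like (919), vascular endothelium-like (733), smooth muscle-like (290), pericyte-like (232), endocardium-like (217), macrophage-like (143) and epicardium-like (61), written below without the suffix. No collagen gene is on a marker list. In each class the median barcode held 5 to 7 markers of its own list and at most 3 of any other, the 3 being cardiomyocyte transcripts, which were found in every class. The fibroblast class is the least sharply bounded: 324 of its 919 barcodes stood at the limit of 4 markers, and 187 unplaced barcodes were 1 marker short.

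Levels are counts per 1000000 counts of the class (CPM), from the counts of a gene summed over its barcodes. A 3' count is not scaled with transcript length, so levels of different genes can be set side by side, although capture may still differ between genes. With 1 biological sample there is no test of any difference. Intervals below are exact 95% intervals and cover counting error only. The technical replicates show how far 2 libraries of 1 biological sample differ, and at which step they were parted is not in the sample titles. The rule of size used for calls asked for 20 or more counts of the gene in a class in both libraries, and for a CPM 2 or more times that of each of the other 7 classes.

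Fibroblasts and epicardial cells stood far above the rest in total collagen. In fibroblasts the 44 genes summed to 20064 and 20490 CPM in the 2 replicates, and in epicardial cells to 17724 and 17296, so that about 2.03% and 1.75% of all transcript counts were collagen. Smooth muscle held 6270 and 5848 CPM and pericytes 4548 and 4861. Vascular endothelium had 3419 and 3497 CPM, just above endocardium with 3192 and 3015. Cardiomyocytes, with 496 and 522 CPM, stood near the bottom. The replicates did not overlap between any neighbours in this order down to endocardium. Within smooth muscle, the elastin-rich barcodes described below held 8466 and 11292 CPM. The other smooth muscle barcodes held 4922 and 4011, which overlapped pericytes. The fibroblast level was 1.16 times the epicardial level (95% interval 1.138 to 1.183), with 1.132 and 1.185 in the replicates, both just outside that interval. Without the epicardial class the fibroblast level was 3.34 times the next, smooth muscle.

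Droplets carry free RNA into cells that do not make a transcript, so the low end of that scale needs a reference. In the 46 lymphoid and granulocyte barcodes, cells not known for collagen synthesis, the sum was 175 CPM (95% interval 122 to 244, 35 counts). Macrophages held 717 CPM in replicate 1 and 187 in replicate 2. In replicate 1, 240 of their 329 collagen counts came from 7 barcodes with 2 or more fibroblast markers, and in replicate 2 only 1 such barcode was present, with 3 counts. Their part in the macrophage values was not tested further. Of the single genes, Col3a1 was at 40.1 CPM, Col1a1 at 25.1 and Col4a1 at 20.1 in the lymphoid and granulocyte barcodes. Another reference is far higher: barcodes left out for their haemoglobin that met no gate held 3457 CPM of collagen, with Col1a1 at 933. Which of them gives the level of free RNA was not tested, so the lymphoid and granulocyte values are set beside low levels below as a comparison only.

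Per single cell, the pooled medians put fibroblasts first, though not in each replicate. The median fibroblast gave 1.89% of its counts to collagen, with the middle 90% of cells between 0.854% and 4.37%, and every one of the 919 had a collagen count. Epicardial cells had a median of 1.71% (0.891% to 3.24%), with 1.91% and 1.66% in the replicates against 1.88% and 1.90% in fibroblasts. The median smooth muscle barcode had 0.450%, with a wide spread from 0.0774% to 1.63%. Its replicate medians of 0.559% and 0.330% lay on either side of those of pericytes (0.399% and 0.454%). The median cardiomyocyte had 0.0369%, and 771 of the 5412 had no collagen count at all.

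**Figure D1:**
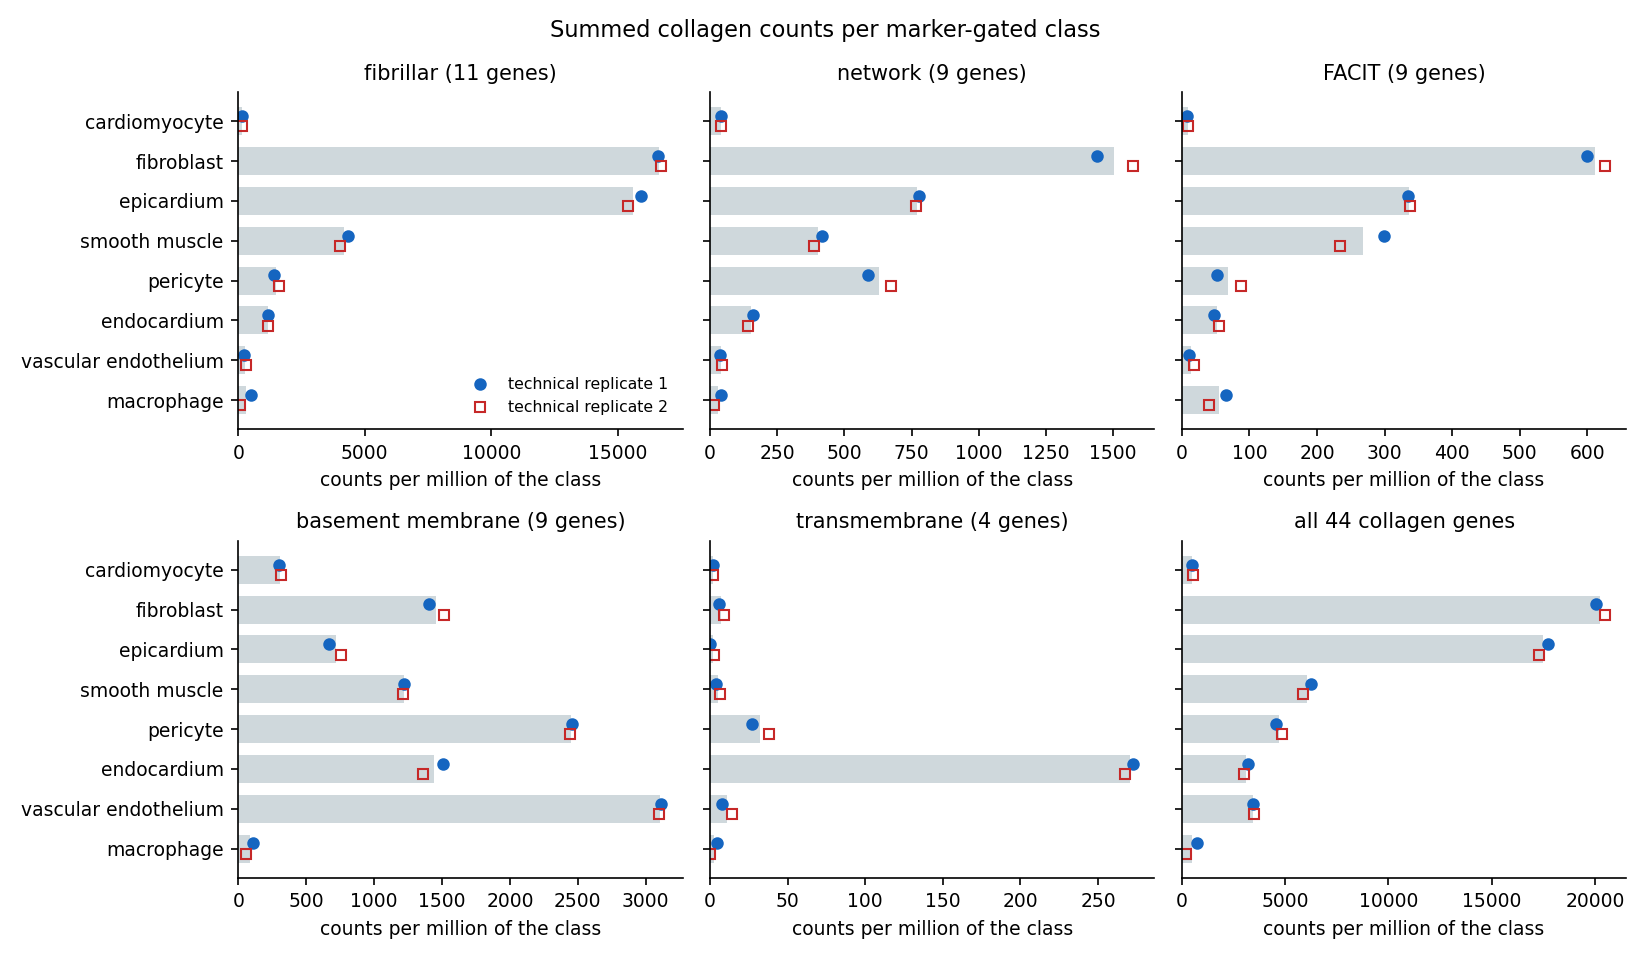
Summed collagen CPM (horizontal axes, linear, CPM of the class) in the 8 marker-gated classes, for 5 collagen groups and for all 44 genes; bars give both replicates together, filled circles technical replicate 1 and open squares technical replicate 2. Fibroblast and epicardium lead the fibrillar group, vascular endothelium and pericyte the basement membrane group, and endocardium the transmembrane group.

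The fibrillar chains made up most of the difference. Type III collagen, which gives stroma and vessel walls their fine fibrils, is a homotrimer of Col3a1, the single collagen gene with the most counts. Col3a1 stood at 7482 and 7859 CPM in fibroblasts and at 7270 and 7166 in epicardial cells. In fibroblasts it held 45339 counts, against 45901 for Col1a1 and Col1a2 together. These are transcript counts, and protein was not measured. Type I collagen, the stiff main fibril, is a trimer of Col1a1 and Col1a2 chains. Col1a1 reached 4190 and 4116 CPM in fibroblasts and 3364 and 3492 in epicardial cells, whereas Col1a2 reached 3658 and 3527 in fibroblasts and 4587 and 4163 in epicardial cells. So fibroblasts held more Col1a1 and epicardial cells more Col1a2, with no overlap of the replicates, by 1.21 times (1.16 to 1.26) and 1.205 times (1.16 to 1.25). Smooth muscle was led by Col1a2 (1650 and 1420 CPM) and Col3a1 (1210 and 1225).

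The bases before the Col3a1 start are shown because this gene held more counts than any other collagen gene. They hold the motif TATAAA, in capitals, 1 of 3 motifs searched on both strands.
Col3a1, chr1:45311388-45311537, plus strand: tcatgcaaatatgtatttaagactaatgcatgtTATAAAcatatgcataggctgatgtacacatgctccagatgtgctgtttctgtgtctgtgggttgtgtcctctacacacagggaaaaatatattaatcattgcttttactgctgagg

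Fibroblast transcripts were also present in epicardial barcodes, which held a median of 1 fibroblast marker. The 33 of 61 epicardial barcodes with at most 1 fibroblast marker held Col3a1 at 8041 CPM, Col1a1 at 3936 and Col1a2 at 3882, and all 33 had counts of each. In the whole class they were at 7208, 3440 and 4334 CPM, so Col3a1 and Col1a1 were higher and Col1a2 lower where fibroblast markers were fewest. Set against the fibroblast levels above, these 33 barcodes still held less Col1a1 and more Col1a2, but by a smaller margin than the whole class. Their Col3a1 level was above that of fibroblasts. Replicate 1 gave 20 of the epicardial barcodes and replicate 2 gave 41.

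Of the 6 other fibrillar genes with enough counts, 2 were called higher in fibroblasts, Col5a1 and Col11a1. Type V collagen starts fibrils and limits their width, and type XI does so in cartilage and at low levels elsewhere. Col5a1 was at 516 and 499 CPM in fibroblasts, against 142 and 157 in pericytes, the next class. That is 3.41 times (2.92 to 4.02), with no overlap. Col11a1 was at 45.6 and 41.3 CPM in fibroblasts and at most 4.78 in any replicate of another class, 13.8 times the next class (5.85 to 42.9). Its partner Col5a2 did not separate the classes in this way: it stood at 577 CPM in fibroblasts, 456 in epicardial cells and 446 in endocardium.

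Col5a3, Col24a1 and Col27a1, minor fibrillar chains, had no single leading class. Col5a3 was at 29.4 CPM in fibroblasts and 27.1 in pericytes, Col24a1 at 15.1 in smooth muscle and 14.4 in fibroblasts, and Col27a1 at 54.1 in fibroblasts and 47.9 in smooth muscle. The interval of each of these 3 ratios included 1. Of the fibrillar genes, Col2a1 (9 counts in kept barcodes) and Col11a2 (53) had too few counts for the rule.

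The upstream bases of Col5a1 and Col11a1 are shown because these were the 2 fibrillar genes called higher in fibroblasts. Capitals mark GGGCGG and CCAAT motifs on either strand.
Col5a1, chr2:27886275-27886424, plus strand: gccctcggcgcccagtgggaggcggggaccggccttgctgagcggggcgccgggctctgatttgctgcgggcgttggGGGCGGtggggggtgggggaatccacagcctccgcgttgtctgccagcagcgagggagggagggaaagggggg
Col11a1, chr3:114030390-114030539, plus strand: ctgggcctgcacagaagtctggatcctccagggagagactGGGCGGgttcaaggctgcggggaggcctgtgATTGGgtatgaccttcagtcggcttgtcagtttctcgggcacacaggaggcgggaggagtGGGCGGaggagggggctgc

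In all, 11 of the 44 collagen genes were called higher in 1 class, of 32 that had enough counts, which is 34.4% against 11.6% of all 12348 genes with enough counts. Fibroblasts had 8 of them, where the background was 0.858%. Endocardium had 2 (6.25%, background 1.21%) and epicardium 1 (3.12%, background 1.17%). None was called in cardiomyocytes (background 3.24%), smooth muscle (0.559%), pericytes (0.591%), vascular endothelium (1.43%) or macrophages (2.5%). A gene enters the 32 through the class where it is high, so these shares describe the genes that could be called and not all 44.

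By highest pooled level alone, 19 of the 32 were highest in fibroblasts, 6 in epicardial cells, 4 in endocardium, 2 in vascular endothelium and 1 in smooth muscle. The matching shares of all genes were not taken, so these numbers describe the 32 genes only. Col4a6, Col5a3, Col6a6, Col16a1 and Col18a1 changed their highest class between the replicates. The gene nearest to the limit from above was Col6a3, with a smaller replicate ratio of 2.32, and from below Col25a1, with 1.71.

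**Figure D2:**
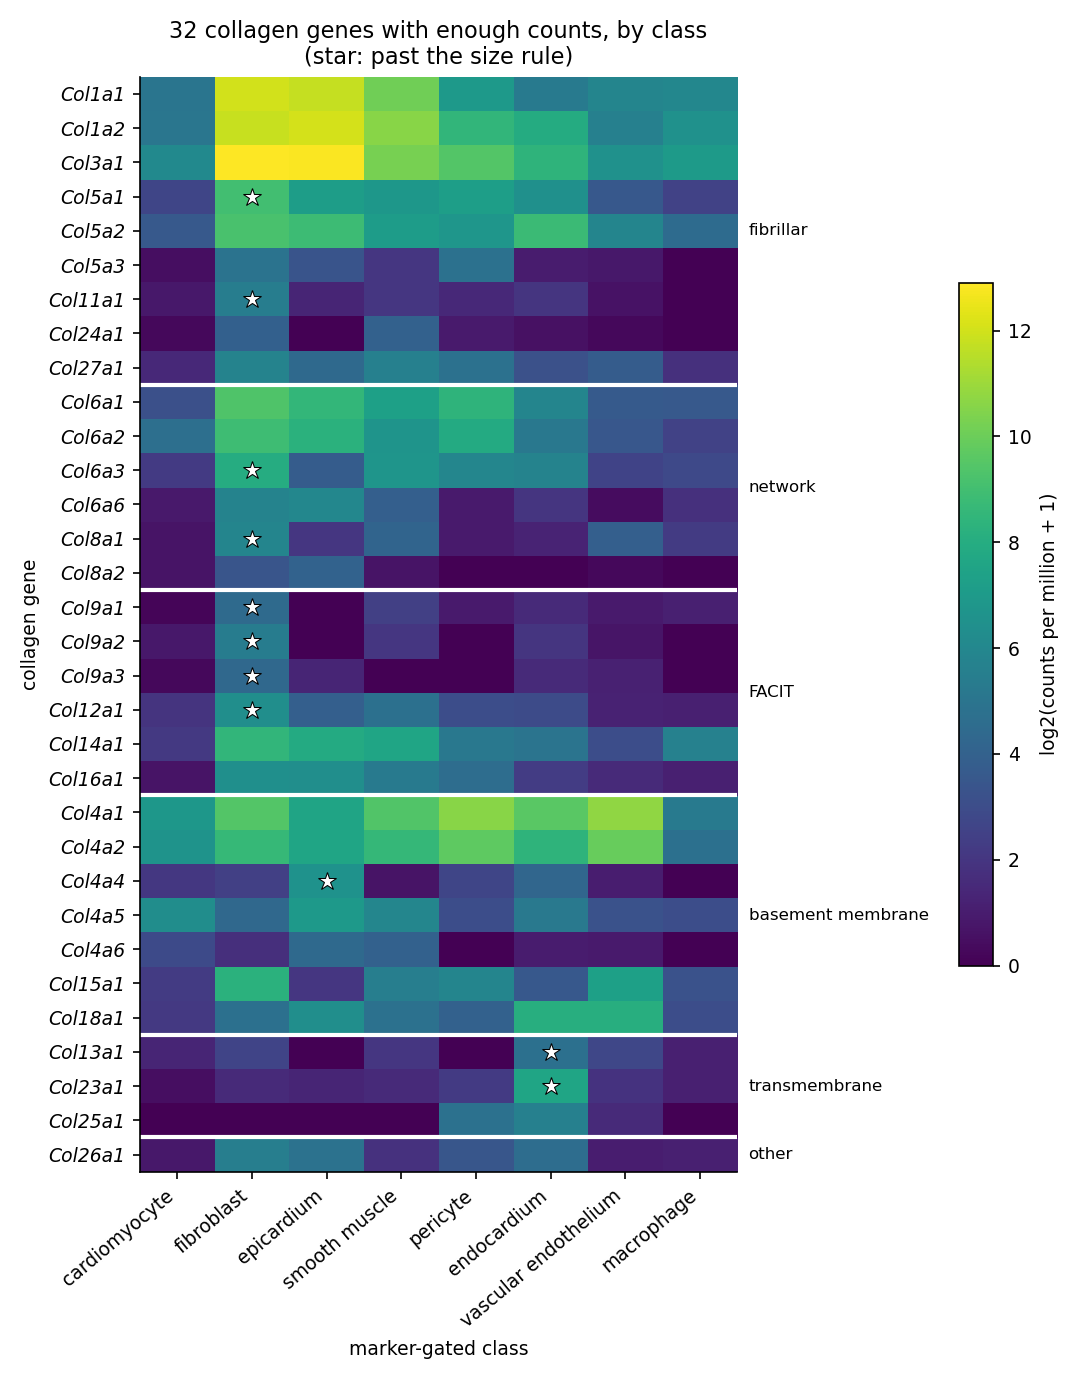
Levels of the 32 collagen genes with enough counts (rows, by group) in the 8 marker-gated classes (columns), as log2(CPM + 1) with both replicates together; a star marks a class in which the gene passed the size rule. The 8 stars in the fibroblast column fall in the fibrillar, network and FACIT groups, and both stars of the endocardium column in the transmembrane group.

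The network group was highest in fibroblasts, at 1440 and 1575 CPM, against 777 and 767 in epicardial cells and 589 and 674 in pericytes. Type VI collagen, the beaded filament around cells, carried most of it. Col6a1 was at 649 CPM in fibroblasts, 366 in epicardial cells and 329 in pericytes, and Col6a2 at 483, 296 and 240. Col6a3, the remaining chain of the trimer, differed. It was at 250 and 253 CPM in fibroblasts and at 104 and 109 in smooth muscle, a ratio of 2.36 (2.01 to 2.78). It was not called when clusters replaced the gates (1.97) or when barcodes rich in cardiomyocyte markers were left out (2.04). Epicardial cells held Col6a3 at 15.4 and 10.4 CPM, from 4 counts in each replicate.

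Col6a6, a chain that can stand in for Col6a3, was at 62.1 CPM in epicardial cells and 52.9 in fibroblasts, with replicates that changed the order. Col6a5 had 15 counts in all kept barcodes, of which 10 were in the 61 epicardial barcodes, and Col6a4 had 2. Type VIII collagen forms hexagonal lattices, as in vessel walls and the cornea. Col8a1 was at 52.6 and 61.5 CPM in fibroblasts, 14.4 and 20.02 in smooth muscle, and 13.3 and 14.5 in vascular endothelium, a ratio of 3.33 (2.25 to 5.13) to smooth muscle. Its partner Col8a2 was at 15.5 CPM in epicardial cells (10 counts) and 9.63 in fibroblasts. Col10a1 had 1 count.

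FACIT genes were led by fibroblasts throughout. Of the 6 genes with enough counts, all were highest in fibroblasts by pooled level and 4 were called there. The group sum was 599 and 627 CPM against 334 and 338 in epicardial cells. Col12a1, on the surface of fibrils in tissue under load, was at 77.9 and 85.8 CPM, against 23.9 and 29.4 in smooth muscle, 3.08 times (2.24 to 4.33). Type IX collagen, best known from cartilage, has 3 chains, and all 3 were called, although Col9a3 was lost when barcodes meeting more than 1 gate were left out (ratio 4.38). Col9a2 was at 37.1 and 46.3 CPM in fibroblasts and at most 5.34 in any replicate of another class. Col9a1 was at 21.5 and 21.0 CPM, with smooth muscle next at 3.59 and 5.34, and Col9a3 at 17.7 and 21.7, with endocardium next at 0 and 4.35. Much of both came from the 56 valve or tendon-like fibroblast barcodes described below. They gave 74 of the 126 fibroblast counts of Col9a1 and 68 of the 116 of Col9a3. In the other 863 fibroblasts, Col9a1 was at 9.32 CPM and Col9a3 at 8.60.

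The type IX ratios rest on few counts outside fibroblasts and are loosely bounded. Col9a2 was 13.1 times its next class (5.55 to 40.8), Col9a3 10.1 times (3.85 to 37.7) and Col9a1 4.82 times (2.27 to 12.2). Against the highest other class of each single replicate, Col9a2 came to 10.6 and 8.68 and Col9a3 to 4.61 and 4.997.

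The larger FACIT genes were spread over more classes. Col14a1, a regulator of fibril growth, was at 362 CPM in fibroblasts, 237 in epicardial cells and 193 in smooth muscle. Col16a1 was at 86.1 CPM in fibroblasts and 82.2 in epicardial cells, where the interval of the ratio included 1. Its replicate ratios of 0.841 and 1.27 changed the order. Too few counts were found for 3 FACIT genes: Col19a1 (5 in kept barcodes), Col20a1 (17) and Col22a1 (13).

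The basement membrane sum was highest in vascular endothelium and pericytes, but none of its 7 genes with enough counts was called in either, and 2 were highest in vascular endothelium, Col4a1 and Col4a2. The sum was 3115 and 3097 CPM in vascular endothelium, 2457 and 2444 in pericytes, 1506 and 1361 in endocardium, 1403 and 1512 in fibroblasts, 1218 and 1216 in smooth muscle, and 665 and 757 in epicardial cells. Endocardium and fibroblasts overlapped, and the other neighbours did not. The lead of vascular endothelium over pericytes was 1.27 times (1.22 to 1.32). Cardiomyocytes, which lie in a basement membrane of their own, held 300.2 and 314 CPM.

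Col4a1 and Col4a2, the chains of the common type IV trimer, set this order. Col4a1 was at 1740 and 1704 CPM in vascular endothelium, 1513 and 1578 in pericytes and 814 and 705 in endocardium, and it was the highest collagen gene in each of these classes. Col4a2 was at 934 and 954 CPM in vascular endothelium and 828 and 810 in pericytes. Cardiomyocytes held Col4a1 at 109 and 115 CPM and Col4a2 at 97.9 and 95.3. Next came Col4a5, at 80.1 CPM, against 10.0 CPM for Col4a5 in the lymphoid and granulocyte barcodes (a level that 2 counts give).

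After thinning every barcode to 1850 counts, 13.9% of cardiomyocytes (753 of 5412) had a Col4a5 count, against 3.48% of fibroblasts (2.39% to 4.88%) and 1.23% of vascular endothelium (0.563% to 2.32%). Epicardial barcodes stood higher, at 26.2% (15.8% to 39.1%), and smooth muscle in between, at 9.655% (6.512% to 13.65%). Without thinning the shares were 37.2% in cardiomyocytes, 10.2% in fibroblasts and 8.19% in vascular endothelium, at median depths of 6123, 6166 and 9192 counts. For epicardial barcodes and smooth muscle they were 65.6% and 23.45%, at 7921 and 4850 counts. Cardiomyocyte barcodes also differed from the rest in their mitochondrial counts, with a median of 36.7% against 3.13% to 5.46% in the other classes, and a CPM is lowered where mitochondrial counts take up more of the total.

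Of the other type IV chains, Col4a4 alone was called, in epicardial cells. Col4a4, a chain of the trimer known from kidney, lung and inner ear, was at 115 and 80.6 CPM in epicardial cells and at 18.4 and 17.4 in endocardium, a ratio of 5.28 (3.45 to 8.17). The call rests on 30 and 31 counts. In the epicardial barcodes with at most 1 fibroblast marker it was at 100.2 CPM. After thinning, 18.0% of epicardial barcodes (9.36% to 30.0%) had a Col4a4 count, against 0.653% of fibroblasts (0.240% to 1.42%) and 0 of 733 vascular endothelial barcodes, which allows up to 0.502%. In endocardium, the next class by level, the share was 3.69% (1.605% to 7.135%). Without thinning the shares were 45.9% in epicardial barcodes, 10.1% in endocardium, 2.50% in fibroblasts and 1.23% in vascular endothelium.

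When the 10 epicardial barcodes that met another gate were left out, 51 barcodes remained with 15 and 25 Col4a4 counts, so that the minimum of 20 in each replicate was no longer met, while the ratio was 4.90. Its partner Col4a3 had 73 counts in all, too few for the rule, with 15 of them in epicardial cells (23.3 CPM). Col4a5 was at 121 CPM in epicardial cells, 1.51 times the cardiomyocyte level (1.19 to 1.89), but with mitochondrial and haemoglobin genes taken out of the CPM the levels were 129 and 124, a ratio of 1.03. Col4a6 was at 20.2 CPM in epicardial cells, and the replicates changed the order.

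All 44 genes were found as protein coding genes in the annotation, on 15 chromosomes, and the type IV chains lie in pairs head to head. The gene models of Col4a1 and Col4a2 on chromosome 8 overlap by 22 bases at their starts, those of Col4a6 and Col4a5 on chromosome X are 1308 bases apart, and those of Col4a4 and Col4a3 on chromosome 1 are 71 bases apart. The bases between the last pair are shown because Col4a4 was the collagen gene called in epicardial cells and Col4a3, with 15 counts there, is its neighbour. None of the 3 motifs searched occurs in them, so no letter is in capitals.
Col4a4 and Col4a3, chr1:82586850-82586920, minus strand: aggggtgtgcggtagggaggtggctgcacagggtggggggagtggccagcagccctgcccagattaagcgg

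Types XV and XVIII, the other basement membrane genes, parted from type IV and from each other. Col15a1 was at 262 and 339 CPM in fibroblasts, 165 and 158 in vascular endothelium and at most 5.20 in either replicate of epicardial cells. Col18a1 was at 285 and 248.9 CPM in endocardium and 268 and 266 in vascular endothelium, which overlapped, and at 26.5 CPM in fibroblasts. The Col18a1 ratio of endocardium to vascular endothelium was 1.01 (0.916 to 1.10), while Col15a1 was at 13.1 and 7.61 CPM in endocardium. Col7a1, the anchoring fibril of skin, had 37 counts, and Col28a1 had 13.

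Transmembrane genes were highest in endocardium, the lining of the chambers, where 2 of the 3 with enough counts were called. The 4 genes summed to 273 and 267 CPM there, to 27.3 and 38.2 in pericytes and to at most 13.97 in either replicate of any other class, a ratio of 8.33 to pericytes (5.94 to 12.0). Col23a1 carried most of it, at 195 and 189 CPM in endocardium and at most 5.73 in any other class and replicate. That is 53.3 times the next class, with an interval of 20.7 to 197, because pericytes had only 4 counts. The 2 replicates gave ratios of 89.4 and 33.0.

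After thinning, 26.7% of endocardial barcodes (21.0% to 33.1%) had a Col23a1 count and 0.409% of vascular endothelial ones (0.0845% to 1.19%). Without thinning these were 66.8% and 1.36%, at median depths of 7847 and 9192 counts. Col13a1, found at cell adhesions and the neuromuscular junction, was at 25.3 and 27.2 CPM in endocardium and at 5.43 and 6.02 in vascular endothelium, a ratio of 4.58 (3.06 to 6.87). Col25a1 was at 48.9 CPM in both endocardial replicates and at 25.6 and 28.7 in pericytes, a ratio of 1.81 (1.19 to 2.82), short of the limit. No Col25a1 count was found in the 919 fibroblasts, 61 epicardial cells or 290 smooth muscle barcodes. Col17a1, of epithelial attachment plaques, had 13 counts in all.

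The upstream bases of both genes called in endocardium are shown because their levels set this class apart. Capitals mark the GGGCGG motif on the reverse strand before Col23a1, and none of the 3 motifs occurs in the stretch before Col13a1.
Col23a1, chr11:51289770-51289919, plus strand: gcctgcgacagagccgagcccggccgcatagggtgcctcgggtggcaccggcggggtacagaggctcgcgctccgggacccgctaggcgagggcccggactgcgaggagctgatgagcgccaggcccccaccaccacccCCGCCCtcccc
Col13a1, chr10:61979109-61979258, minus strand: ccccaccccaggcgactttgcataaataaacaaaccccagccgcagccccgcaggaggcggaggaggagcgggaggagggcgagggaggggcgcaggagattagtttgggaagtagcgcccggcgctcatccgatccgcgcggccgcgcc

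Of the 44 genes, 35 were matched to RefSeq promoter windows (GRCm38.p6), in 38 windows of 300 bases, and the 150 bases before the start are printed for 5 of them, none of which falls in an annotated exon. CCAAT occurred on either strand in 34.2% of the collagen windows and 37.4% of all 32851 windows, TATAAA in 13.2% and 13.6%, and GGGCGG in 60.5% and 35.7%. A match is a description of the letters. Col26a1, the 1 gene of the other kinds with enough counts, was at 44.6 CPM in fibroblasts, 27.9 in epicardial cells and 23.7 in endocardium.

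Chains that share a trimer were not in one ratio in all classes. Of the summed counts of Col1a1 and Col1a2, Col1a1 took 53.6% in fibroblasts (53.1% to 54.1%), 44.3% in epicardial cells, 41.6% in smooth muscle, 25.8% in pericytes (22.2% to 29.8%) and 13.6% in endocardium (10.96% to 16.7%). In endocardium the Col1a2 level was 246 CPM against 38.8 for Col1a1, and in the lymphoid and granulocyte barcodes they were at 15.03 and 25.1. Vascular endothelium had a Col1a1 share of 54.6%, close to that of fibroblasts, at 58.2 and 48.5 CPM for the 2 genes.

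Type V chains differed between classes too. Col5a1 took 57.5% of Col5a1 and Col5a2 in pericytes (51.5% to 63.3%), 46.8% in fibroblasts, 23.8% in epicardial cells, 16.4% in endocardium and 15.7% in vascular endothelium. In endocardium Col5a2 was the second collagen gene, at 413 and 486 CPM, and Col5a1 was at 77.8 and 98.9.

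For type IV the share of Col4a1 lay between 49.4% and 69.6% in all 8 classes. Col4a1 took 63.2% of Col4a1 and Col4a2 in fibroblasts, 65.3% in pericytes, 64.6% in vascular endothelium, 69.6% in endocardium and 63.9% in smooth muscle. Cardiomyocytes, with 53.6% (52.5% to 54.8%), and epicardial cells, with 49.4% (42.9% to 55.9%), were lower. The 22 bases shared by the 2 gene models lie at their starts, whereas the assay tags transcript ends. How reads in those bases were assigned is not given. For Col6a1 and Col6a2 the share of Col6a1 was 52.8% to 62.2% in the 6 classes other than cardiomyocytes, where it was 23.8% (21.4% to 26.4%). There Col6a2 was at 25.3 CPM and Col6a1 at 7.91, against 5.01 for each in the lymphoid and granulocyte barcodes. Macrophages had under 20 counts of that pair.

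Among the scarcer pairs, Col4a5 took 79.5% (smooth muscle) to 97.4% (endocardium) of Col4a5 and Col4a6. Col4a3 took 19.7% of Col4a3 and Col4a4 in epicardial cells (11.5% to 30.5%). Col8a1 took 85.5% of Col8a1 and Col8a2 in fibroblasts and 98.4% in vascular endothelium.

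**Figure D3:**
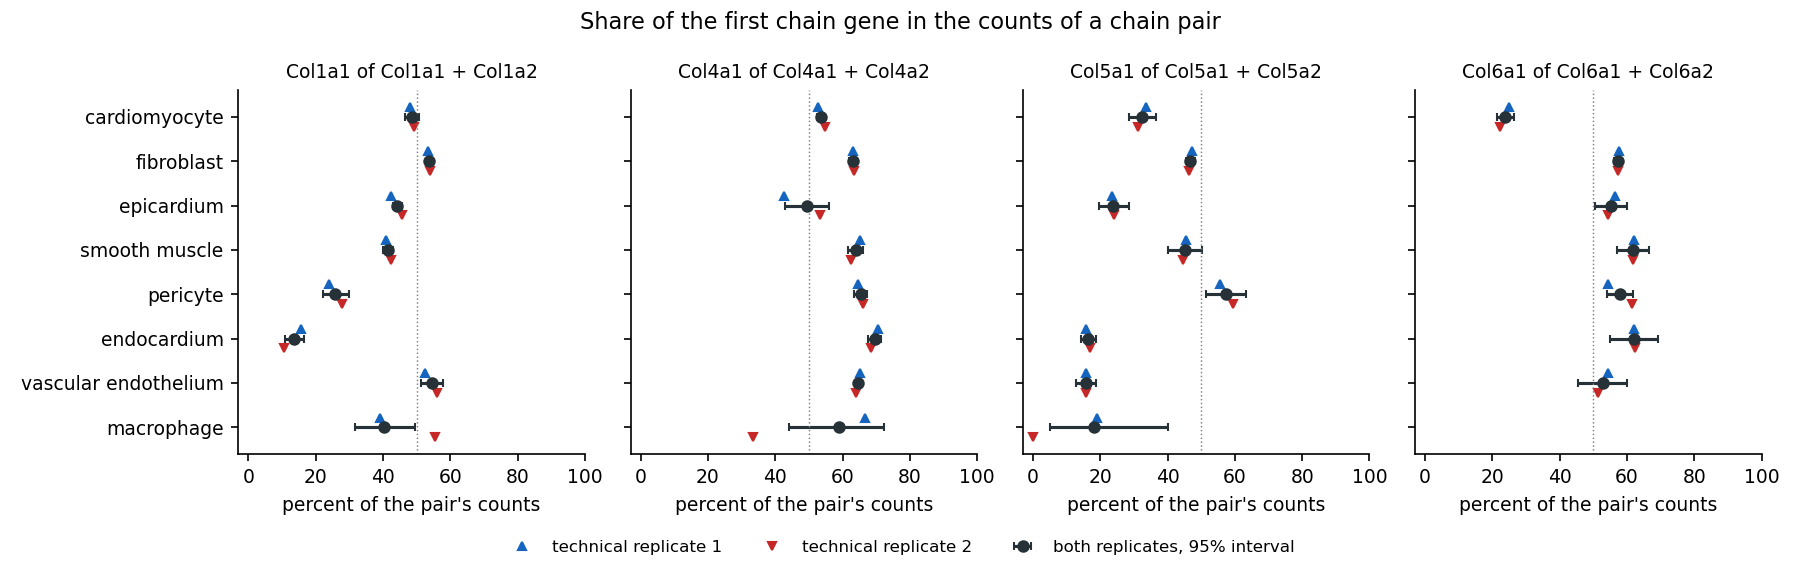
Share of the first gene in the summed counts of a chain pair (horizontal axis, percent) in the 8 marker-gated classes; dots with bars give both replicates with the exact 95% interval, triangles the single replicates, and a pair with under 20 counts in a class is not drawn. Col1a1 runs from 13.6% in endocardium to 54.6% in vascular endothelium, while Col4a1 stays between 49.4% and 69.6%.

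Within the fibroblast class, 56 barcodes held 3 or more of 7 valve or tendon markers, such as Scx and Fmod, and were set against the other 863. A division by marker number cuts through a range: 38 of the 56 stood at the limit of 3 and 74 others had 2. Type IX collagen stood out. Col9a1 was at 239 and 195 CPM in valve or tendon-like fibroblasts and at 9.04 and 9.64 in the others, 23.3 times (16.1 to 33.9). Col9a3 was at 134 and 266 against 11.1 and 5.79 CPM, 23.2 times (15.8 to 34.3), with ratios of 12.1 and 45.9 in the replicates. Neither overlapped. Counts of Col9a1 were found in 31 of the 56 barcodes and in 29 of the 863, and counts of Col9a3 in 26 and 27.

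Col9a2, the remaining chain, did not go with them. Col9a2 was at 35.2 CPM in valve or tendon-like fibroblasts, from 11 counts in replicate 1 and 1 in replicate 2, and at 41.8 in the others, so Col9a1 took 86.0% of the pair with Col9a2 in the former (76.9% to 92.6%) and 18.2% in the latter (13.9% to 23.2%). A pair of cartilage genes lean the same way with few counts: the 7 fibroblast counts of Col2a1 were in valve or tendon-like barcodes, and 10 of 16 of Col11a2.

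Fewer counts of 7 collagen genes were found per total in the valve or tendon-like barcodes, enough to be called lower. Col4a1 was at 132 CPM there and at 730 in the other fibroblasts, a ratio of 0.181 (0.132 to 0.243). Col4a2 had a ratio of 0.214 and Col15a1, at 47.0 against 313 CPM, one of 0.150 (0.0856 to 0.244), with 0.235 and 0.0823 in the replicates. Col14a1 was at 129 against 376 CPM, a ratio of 0.344, and Col5a3, from only 3 counts, had one of 0.287 (0.0587 to 0.854), with 0.176 and 0.425 in the replicates. No count of Col26a1 or Col24a1 was found in the 56 barcodes. With 3 counts as the floor over both replicates, Col26a1 was at least 5.37-fold higher and Col24a1 at least 1.73-fold higher in the other fibroblasts, so the bound of Col24a1 does not itself reach the 2-fold limit.

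Col3a1, at 3956 against 7884 CPM, had a ratio of 0.502, with 0.557 and 0.448 in the replicates, and missed the limit. Of 27 collagen genes with enough counts, 2 were called higher (7.41%, background 0.553% of 9043 genes) and 7 lower (25.9%, background 6.2%), Col24a1 among the 7. The median ratio of the 27 was 0.976 and that of all genes 0.969. Of the 56 barcodes, 42 also met a second gate, counting the fibroblast and the valve gate apart, and which structures the barcodes came from is not in the labels.

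Within smooth muscle, 101 barcodes held 3 or more of the 4 genes Eln, Fbln5, Osr1 and Bdnf and were set against the other 189. Both type I chains and 2 of the 3 type VI chains with enough counts were called higher in the elastin-rich barcodes. Col1a1 was at 1848 and 2527 CPM there, against 716 and 537, a ratio of 3.37 (3.06 to 3.72). Col1a2 was at 2533 and 3082 CPM, against 1108 and 859, a ratio of 2.80 (2.58 to 3.04). Col6a1 had a ratio of 3.53 (2.73 to 4.59) and Col6a3 one of 2.66 (1.95 to 3.66). Col6a2, with 1.71 (1.24 to 2.37; 1.49 and 2.04 in the replicates), was not called. Of 12 collagen genes with enough counts, these 4 were called higher (33.3%, background 2.98% of 3626 genes) and none lower (background 7.09%), and the median ratio was 2.03 against 0.968 for all genes.

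Col3a1 and Col14a1 had ratios of 2.25 and 2.49 but under 2 in replicate 1 (1.55 and 1.77). The Col4a1 level was 613 CPM in elastin-rich and 715 in other smooth muscle, and the Col4a2 level 311 and 421. Other basement membrane genes leaned the opposite way: Col4a5 had a ratio of 1.34 (0.859 to 2.07), and Col15a1, with too few counts for a call, was at 72.9 against 30.6 CPM, a ratio of 2.38 (1.45 to 3.93). Col1a1 counts were found in 100 of 101 elastin-rich barcodes and 81 of 189 others. The replicate ratios of Col1a1 differed, 2.58 and 4.70. Of the elastin-rich barcodes 69 stood at the limit of 3 genes. In the whole smooth muscle class the 7 fibroblast marker genes summed to 1026 CPM, more than in any class other than fibroblasts, and their part in these ratios was not tested.

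**Figure D4:**
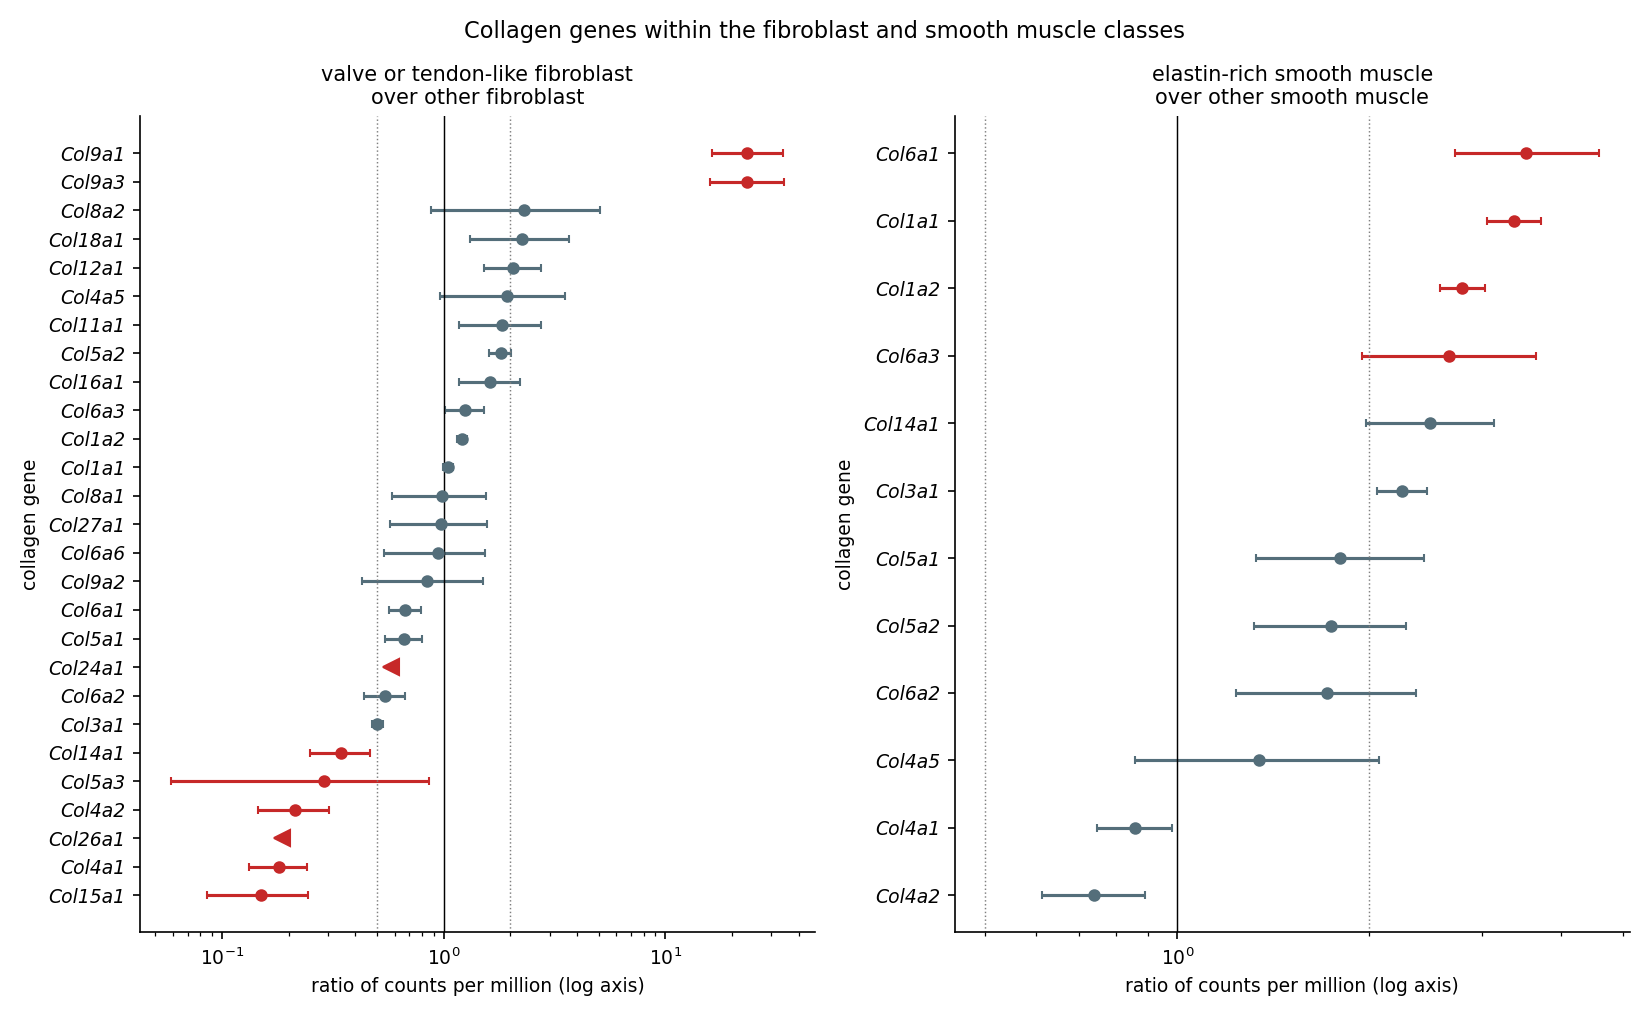
Ratio of CPM (horizontal axes, log scale) for collagen genes with enough counts, valve or tendon-like over other fibroblasts on the left and elastin-rich over other smooth muscle on the right; dots with bars give the ratio and its exact 95% interval, arrowheads the bound for genes with 0 counts, red marks genes past the rule, and dotted lines stand at 2 times in either direction. Col9a1 and Col9a3 lie near 23 on the left, and 4 genes of types I and VI are red on the right.

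The genes that make, trim and bind collagen were followed in 6 lists of 85 genes, of which 70 had enough counts and 14 were called, against the 11.6% of all genes given above. Of the 21 genes of the assembly line, enzymes and chaperones among them, 1 was called (4.76%). A gene that was not called could still differ between classes. Serpinh1 was at 1389 CPM in fibroblasts, 1199 in epicardial cells, 202 in cardiomyocytes and 39.4 in macrophages. The called gene was Creb3l1, a factor that drives collagen secretion, at 202 CPM in epicardial cells and 96.4 in fibroblasts (2.09 times, 1.72 to 2.53). The replicate ratios of 2.19 and 2.01 lie close to the limit. The most abundant gene of the list, Sparc, which binds collagen and calcium, was at 7256 CPM in epicardial cells and 4272 in fibroblasts. Of the trimming and cross-linking enzymes none of the 10 with enough counts was called, and Pcolce, an enhancer of procollagen C-proteinase, was the highest, at 606 CPM in fibroblasts and 524 in epicardial cells.

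Of the turnover genes, 2 of 9 were called, both inhibitors of matrix metalloproteinases in epicardial cells. Timp2 was at 1233 CPM, against 411 in fibroblasts (ratio interval 2.77 to 3.25), and Timp1 at 168 CPM, 4.20 times (3.31 to 5.30), with 5.12 and 2.69 times in the replicates. Genes of the list of fibril regulators were called most often, 7 of 12, with 6 in fibroblasts, Postn, Tnxb and Thbs1 among the 6. Lum, a small leucine-rich proteoglycan, was at 1520 CPM in fibroblasts and 113 in smooth muscle (13.5 times, 11.6 to 15.7), and Prelp at 125 against 24.8 in epicardial cells (5.04 times). Fmod was called in epicardial cells, at 436 against 58.1 CPM in fibroblasts (7.502 times), and it is also a marker of the valve or tendon division. Dcn was the highest of this list, at 4075 CPM in fibroblasts and 2634 in epicardial cells.

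Receptors were called in 3 of 6 cases, each in another class. Lair1, an inhibitory collagen receptor of leukocytes, was at 186 CPM in macrophages and 4.65 in epicardial cells, from 3 counts (39.95 times, 13.4 to 196), with ratios of 169.6 and 21.02 in the replicates. Adgrg1, an adhesion receptor, was at 29.8 CPM in vascular endothelium (6.41 times, 2.17 to 31.3), and Itga1, an integrin chain that binds type IV collagen, at 151 CPM in pericytes (3.72 times, 3.08 to 4.49). Itgb1, its beta chain, was the highest of the list, at 848 CPM in pericytes. Of the basement membrane partners 1 of 12 was called, Lama2, the laminin chain of muscle basement membrane, at 128 CPM in fibroblasts and 45.4 in cardiomyocytes (2.82 times, 2.58 to 3.07). With mitochondrial and haemoglobin genes taken out of the CPM the Lama2 ratio was 1.91 and the call was lost, while the other 13 of the 14 list genes kept theirs (for these genes and Col4a5, this was chosen after seeing the data). Hspg2, perlecan, was the highest, at 538 CPM in vascular endothelium and 432 in endocardium.

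Among the barcodes removed by the haemoglobin limit, those that met the cardiomyocyte gate had 2584 CPM of collagen, against 509 CPM in the cardiomyocytes that were kept, with Col1a1 at 693 CPM. They entered no comparison above.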

How the data were processed

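The data are 2 libraries of dissociated P0 whole mouse heart, technical replicates of 1 biological sample, made with a droplet 3' kit (version 2), per the labels' protocols. The authors deposited a table of raw counts per gene and barcode for each library. Cell Ranger 2.1.0 and the mm10 build are named in the submitters' processing notes. Whether a count is a molecule or a read, and how strand and overlapping genes were treated, is not given in the sources used here.

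Symbols were matched to 27645 of 27999 gene IDs. Barcodes with at least 500 genes and under 0.5% haemoglobin counts were kept. A barcode joined the class of which it held most markers, with 4 needed (3 for small lists and for the 2 divisions within a class). The cardiomyocyte class, with 5 needed, took only barcodes that met no other gate. Hence 175 of 733 vascular endothelial and 88 of 919 fibroblast barcodes, for example, also held 5 or more cardiomyocyte markers. The cardiomyocyte limit was not counted where barcodes meeting more than 1 gate were left out. Barcodes in a tie (71) or meeting no gate (469) were left out, and no doublet caller was run. Marker numbers needed and both divisions were chosen after the data were seen. The valve or tendon gate alone gave few barcodes, so those barcodes were kept in the fibroblast class. Counts were summed per class and replicate. Ratios carry exact conditional binomial intervals, levels exact Poisson intervals and shares Clopper-Pearson intervals. The rule of size was run on simulated counts first. Named were all genes past it, the 2 highest collagen genes per class, and per list up to 3 genes past the rule and the highest gene. Collagen genes and lists were chosen with earlier results of these data known. Alternatives changed 1 choice at a time, among them Leiden clusters (leidenalg 0.10.2) named by the gates. Sums and intervals were computed with scipy 1.17.1 and numpy 2.4.6 under Python 3.11.15. Gene positions are those of GENCODE on GRCm38.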

Additional observations from a re-analysis of the deposited data

How the results depend on the processing

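In every alternative that was run, the class with the highest sum stayed the same for all 44 genes and for each of the 5 named groups. The epicardial class set most margins: with it left out (chosen after seeing the data), the fibroblast lead became 3.338 for the total, 3.984 for fibrillar, 2.284 for FACIT and 2.389 for network genes, and Col1a1, Col1a2, Col3a1, Col6a6 and Col8a2 were called as well. With 1 fewer marker needed, the ratios were 1.109 (total), 1.014 (fibrillar), 1.195 (basement membrane) and 1.716 (FACIT), and with 1 more, 1.101 (fibrillar) and 1.301 (basement membrane). The lead of vascular endothelium over pericytes in basement membrane genes was 1.295 with clusters, 1.270 with at least 1000 genes, 1.183 with haemoglobin under 5%, 1.289 with mitochondrial counts at most 20%, 1.282 without mitochondrial and haemoglobin genes, 1.364 with median-of-ratios scaling and 1.159 as a mean over cells. It was 1.278 without barcodes meeting more than 1 gate and 1.286 without barcodes of over 0.5% cardiomyocyte marker counts, both chosen after seeing the data. The FACIT ratio was 1.865 with haemoglobin under 5%, 1.706 as a mean over cells and 1.721 without barcodes meeting more than 1 gate. For moved ratios the cause was not tested.

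Between 9 and 16 collagen genes were called over 18 alternatives. Col6a3 was lost with clusters and with the limit on cardiomyocyte marker counts, at ratios of 1.969 and 2.041, and Col4a4 and Col9a3 without barcodes meeting more than 1 gate, at ratios of 4.904 and 4.384. That setting leaves Col9a3 with 37 and 19 fibroblast counts. Of the assembly genes, 2 were called with 1 more marker, with clusters, with mitochondrial counts at most 20% and without barcodes meeting more than 1 gate, 0 with haemoglobin under 5%, as a mean over cells and at 3-fold, 5 at 1.5-fold, and 2 to 4 with 1 replicate left out. No paired analysis was possible because there is 1 group. Depth limits the scarce genes most: 20 counts in epicardial cells stand for far higher CPM than in cardiomyocytes, since 3 counts amount to 4.65 and 0.0853 CPM.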
